A study of Mus musculus with 22 samples.

Results

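The genes examined encode replication-independent histone variants and were chosen by name. They are the linker histone genes H1f0 and H1fx, the H2A variant genes H2afx, H2afy, H2afy2, H2afz, H2afv and H2afj, and the H3.3 genes H3f3a and H3f3b, and make up 10 of the 18487 genes in the table. RNA came from E14 cells, an established mouse embryonic stem cell (ESC) line, in 11 groups of 2 libraries each. One group, labelled NC, names no compound and served as the reference, and the others were treated with Bromosporine, Valproate, CPTH2, Garcinol, Chaetocin, UNC0379, MS023, DZNep, IOX1 or OICR. Bromosporine binds bromodomains, Valproate inhibits histone deacetylases, CPTH2 and Garcinol inhibit histone acetyltransferases, and Chaetocin and UNC0379 inhibit histone lysine methyltransferases. MS023 inhibits type I protein arginine methyltransferases, DZNep interferes with S-adenosylhomocysteine hydrolysis and thereby with methylation, and IOX1 inhibits 2-oxoglutarate oxygenases such as the JmjC demethylases. The label OICR gives no full compound name. The labels give neither dose, exposure time nor vehicle, and all groups share the cell line. They do not say whether the libraries came from separate cultures, so the p-values below measure only the spread between libraries, which may be technical.

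Most histone protein is made in S phase from clustered genes, whose mRNAs end in a stem-loop in place of a poly(A) tail. The variants are encoded by genes outside these clusters. Their mRNAs are mostly polyadenylated and can be made throughout the cell cycle, and their proteins replace canonical histones in existing nucleosomes. H3.3 is laid down by HIRA at active genes and by ATRX and DAXX in heterochromatin, H2A.Z lies beside transcription start sites, H2A.X is phosphorylated around DNA breaks, and macroH2A carries a large macrodomain and marks repressed chromatin.

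In the table, each value is a normalized score. The median and the largest value are the same in every library, and the quartiles are nearly the same, so a value follows the rank of the gene within its library. A value is therefore a library-relative abundance, and fewer cells of a type cannot be told apart from less RNA per cell. Depth is unknown. All 10 genes passed the filter on low values, which kept 17275 genes, and their values ran from 533 (H1fx) to 67576 (H3f3b), so that no member was near 0 in any library. All 10 markers of pluripotent cells were present in every library. The sum of their values ran from 178012 to 284402, and that of the 8 fibroblast markers from 99 to 1938. Of the fibroblast markers Dcn was listed at 0 in all 22 libraries, Lum in 19, Postn in 12 and Col1a2 in 4, while Col1a1, Col3a1, Thy1 and Pdgfrb were at 0 in none.

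The members share sequence with other genes to unequal extents. The share of 31-base stretches of the longest coding transcript that also occur in transcripts of other genes was 77.8% for H2afz, so its level is uncertain. For the other members this share ran from 0.998% (H2afv) to 31.6% (H3f3a). H2afx differs from the other 9 members in its transcript. A 16-base match to the histone stem-loop consensus with a fully paired stem, shown in capitals with 5 bases on either side, lies at chr9:44335240-44335255 on the plus strand (mm10), 822 bases before the end of the annotated transcript.

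H2afx: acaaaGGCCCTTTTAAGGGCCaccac

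Whether H2afx mRNA also ends at this match was not tested, and the poly(A) selection used here would miss such mRNA. The other 9 members had no such match. The background share was 65.7% of the 70 annotated clustered histone genes and 0.0181% of the 55271 genes outside the clusters. Upstream sequence was available for 9 of the 10 members (RefSeq, GRCm38.p6), as the 250 bases before the start site. The part of this window outside annotated exons is printed for H2afy and H2afj, members whose changes are described below. For H2afy2 the whole window lies in annotated exons, and it is not printed. The GC box GGGCGG and the CCAAT box CCAAT, searched on both strands, are in capitals. The H2afy stretch lies at chr13:56135632-56135800 on the minus strand and the H2afj stretch at chr6:136807998-136808243 on the plus strand. The H2afy stretch lies inside the gene as annotated by GENCODE (chr13:56073619-56136361), which starts further upstream than in RefSeq. The windows of H2afy2, H3f3a and H3f3b also lie inside the genes as annotated by GENCODE.

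H2afy: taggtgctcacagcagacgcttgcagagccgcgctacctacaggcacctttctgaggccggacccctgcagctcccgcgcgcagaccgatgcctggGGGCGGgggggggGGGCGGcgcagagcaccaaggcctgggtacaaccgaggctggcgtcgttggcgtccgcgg
H2afj: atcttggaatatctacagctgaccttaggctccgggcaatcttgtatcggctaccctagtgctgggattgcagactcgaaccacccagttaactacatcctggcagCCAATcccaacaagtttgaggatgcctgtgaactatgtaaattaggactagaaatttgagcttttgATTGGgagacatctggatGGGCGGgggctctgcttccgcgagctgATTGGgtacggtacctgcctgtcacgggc

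The H2afy stretch holds 2 GC boxes and 0 CCAAT boxes, and the H2afj stretch holds 1 GC box and 3 CCAAT boxes. In the full windows a GC box was found in 6 of the 9 members and in 32.7% of 32851 promoters. A CCAAT box was found in 5 of the 9 members and in 33.8% of promoters. The letters TATAAA were present in 1 member window, that of H3f3b, and in 12.4% of promoters, and this window held 4 CCAAT boxes. The windows of H2afy and H2afy2, the macroH2A genes, held neither TATAAA nor a CCAAT box.

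Levels in NC were compared per kilobase of the longest coding transcript. In NC, H2afx (16243 ± 2278 per kb, SD, n = 2) and H2afz (15849 ± 2987) were the highest and overlapped each other, although the level of H2afz is uncertain because of its shared sequence. H3f3b (9422 ± 2250), H2afy (5060 ± 913) and H3f3a (4461 ± 194) came next. H2afy and H3f3a overlapped, and H2afv (2991 ± 132) and H2afj (2573 ± 575) overlapped as well. H1fx (1667 ± 189), H1f0 (1131 ± 108) and H2afy2 (1000 ± 1.3) were the lowest. On this scale the macroH2A1 gene was thus above the macroH2A2 gene, and the H3f3b copy of H3.3 above the H3f3a copy. The order depends on the transcript length used, for the H3.3 copies and for other members. Coding transcripts of H3f3a run from 371 to 2841 bases, and those of H3f3b from 1993 to 2514. Those of H2afz run from 437 to 1069, of H2afv from 519 to 1633 and of H2afj from 577 to 1831, so the places of these genes are not settled. Members lay well above the clustered histone genes in the same oligo-dT-selected RNA. The median of the 62 clustered genes in the table was 18.7 per kb in NC and the highest was 247, against a lowest member of 1000.

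Most members differed between the libraries numbered 1 and 2, and this bears on the precision of single genes. With the replicate number as a term in limma, 9 of the 10 members passed an adjusted p of 0.05, where 52.6% of all genes did, and 0 of 10 exceeded a 2-fold difference, where 4.04% did. H1fx was 0.69 higher on the log2 scale in replicate 2 (SE 0.08, adjusted p = 3.43e-05) and was higher in 11 of 11 groups. H2afx was 0.46 higher (SE 0.06, adjusted p = 9.85e-05), also in 11 of 11 groups. For H1fx the SD within groups (0.53 on the log2 scale) was close to that of the group means (0.56), and for H2afx the same held (0.36 and 0.34). H2afy was lower in replicate 2 by a log2 difference of -0.20 (SE 0.05, adjusted p = 0.00526), with replicate 2 the higher in 1 of 11 groups. H3f3a differed by -0.22 (SE 0.07, adjusted p = 0.0122), with replicate 2 higher in 2 of 11 groups. H2afz was the member that did not pass, at 0.06 (SE 0.07, adjusted p = 0.489). What the numbers stand for was not given in the labels.

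**Figure D1:**
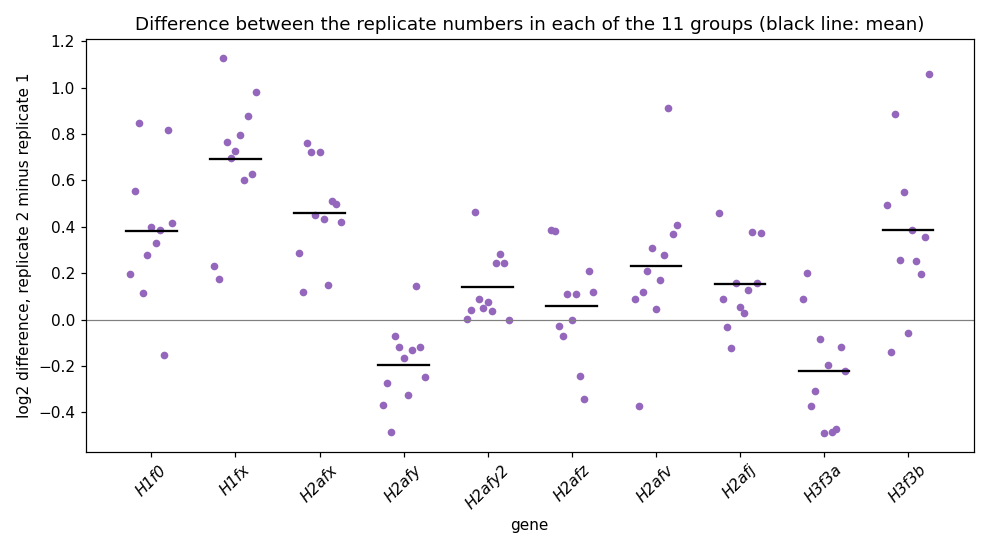
Log2 difference between replicate 2 and replicate 1 (vertical axis) for each of the 10 genes (horizontal axis), with 1 point for each of the 11 groups and the mean as a black line. H1fx and H2afx lie above 0 in all 11 groups, whereas H2afy lies below 0 in all groups but 1.

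To ask which variant genes change with a compound, each compound was compared with NC in limma, and a pair of gene and compound counted as called when its adjusted p lay under 0.05 and its change exceeded 2-fold. Of the 100 member and compound pairs, 1 was called, where 2.15% of all pairs were. This was the fall of H2afy with DZNep. A further 5 pairs passed the adjusted p without reaching 2-fold, making 6 of 100, where 4.23% of all pairs passed. They were the falls of H2afy2 with Valproate, OICR and Bromosporine, the fall of H2afj with MS023 and its rise with DZNep. The compound libraries did not overlap the NC libraries in 44 of 100 pairs, where 40.7% of all pairs did not. These shares lie near those of all genes. With limma's F-test over the 11 groups 3 of 10 members passed an adjusted p of 0.05, near the 29.7% of all genes. These were H2afy (adjusted p = 0.000287), H2afj (adjusted p = 0.000757) and H2afy2 (adjusted p = 0.00199). With CPTH2, Chaetocin, Garcinol, IOX1 and UNC0379, 0 of the 10 members passed the adjusted p, where 0.00579%, 0.0174%, 0.00579%, 0.127% and 0% of all genes did. In these 5 comparisons the largest member change was 0.57 on the log2 scale.

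**Figure D2:**
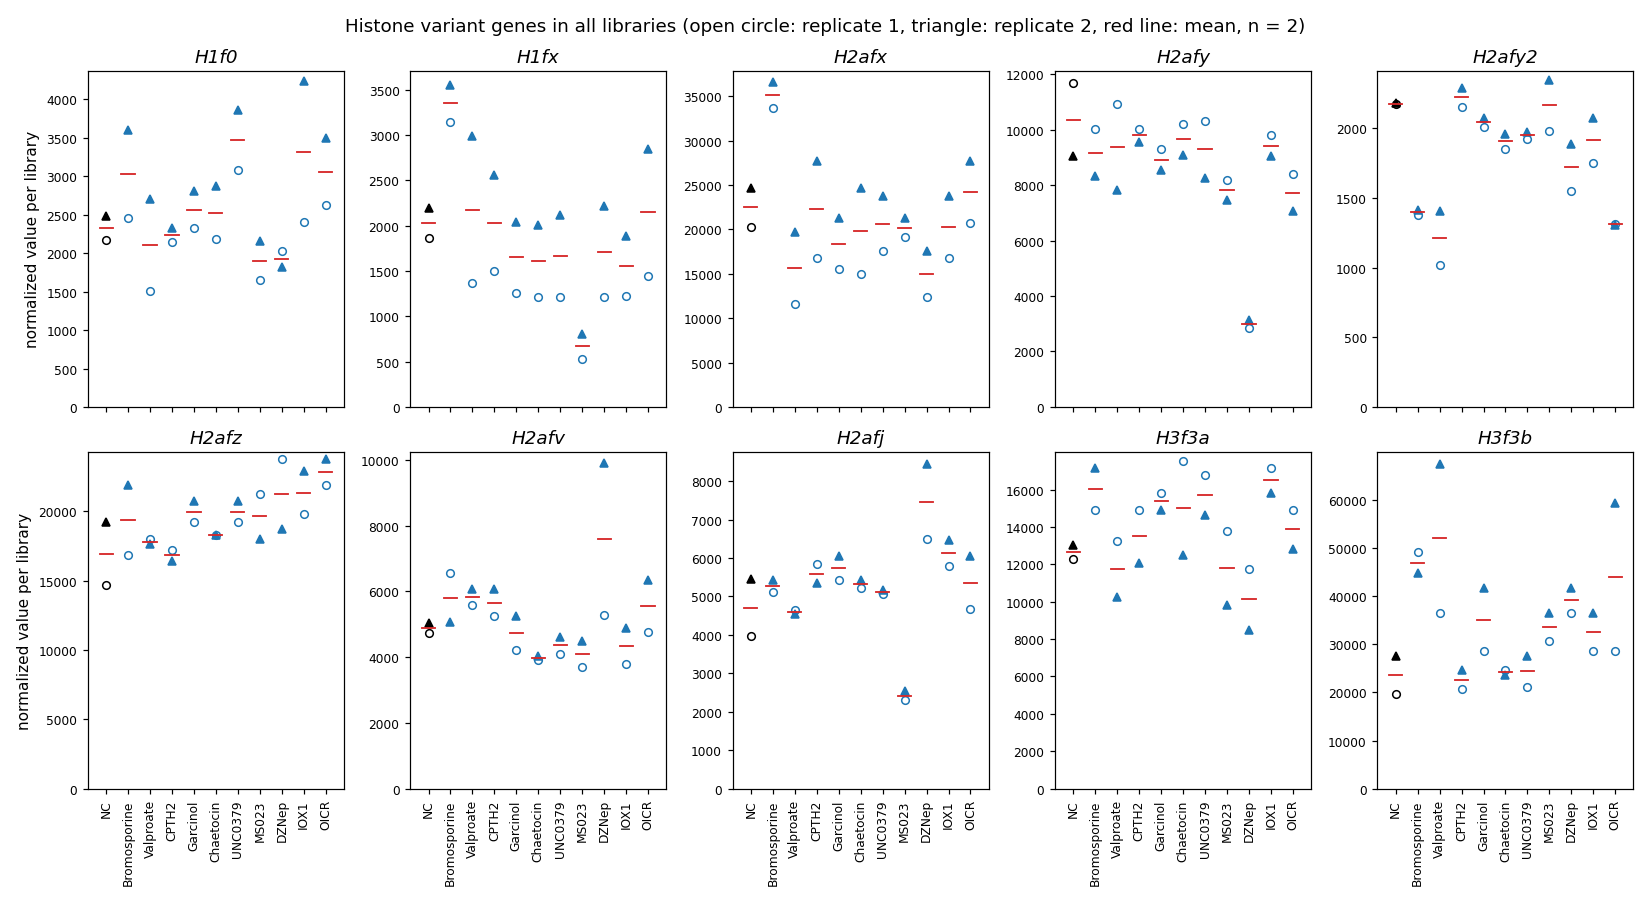
Normalized value (vertical axis, starting at 0) of each variant gene in the 22 libraries by group (horizontal axis), with open circles for replicate 1, triangles for replicate 2 and red lines for the mean. H2afy is low in both DZNep libraries (2838 and 3137), and H2afj and H1fx are low in both MS023 libraries.

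**Figure D3:**
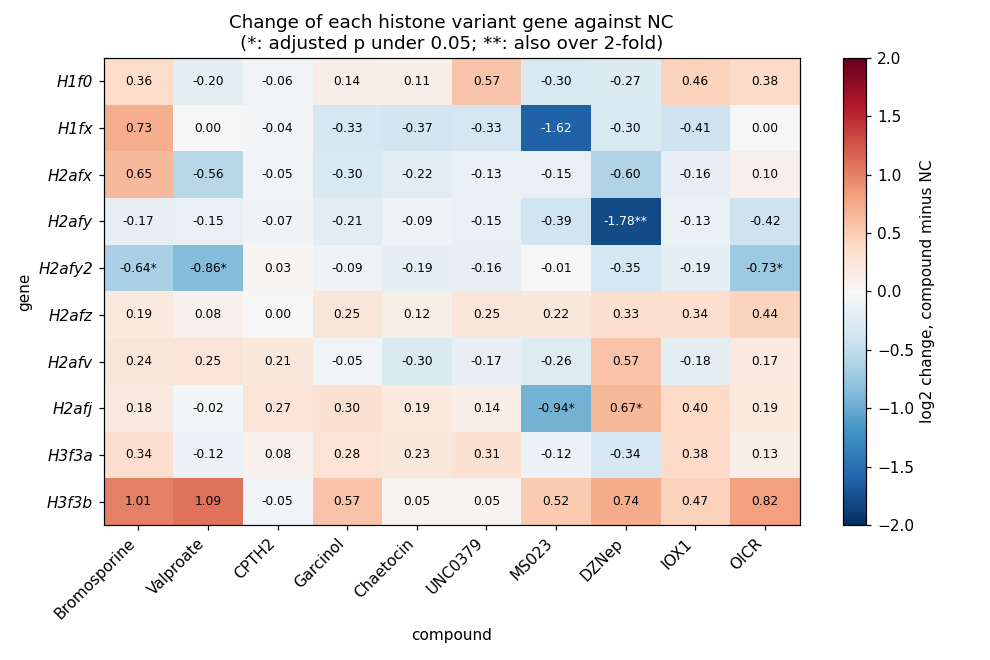
Log2 change of each variant gene (rows) with each compound (columns) against NC, with blue for lower and red for higher. Of 100 cells, 6 carry an asterisk for an adjusted p under 0.05, and 1, H2afy with DZNep at -1.78, also exceeds 2-fold.

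Of the macroH2A genes, H2afy passed the adjusted p in 1 of 10 pairs and H2afy2 in 3 of 10, where 4.23% of all pairs passed. The 3 pairs of H2afy2 share the same NC libraries and are not independent. H2afy (ENSMUSG00000015937, chr13:56073619-56136361, minus strand) encodes macroH2A1. Its values were 11674 and 9031 in NC and 2838 and 3137 with DZNep. Across the other 9 compounds it ran from 7069 to 10935, so the DZNep libraries lay below all 20 others. The fall was 3.44-fold (log2 change -1.78, SE 0.17, adjusted p = 1.86e-05), in a comparison in which 6.14% of genes were called lower. Within replicate 1 the log2 change was -2.04 and within replicate 2 it was -1.53. In direct comparisons added after the values had been seen, H2afy was called lower with DZNep than with each of the 9 other compounds (log2 differences from -1.71 to -1.37, largest adjusted p = 0.000263), where 1.02% of genes were called lower than with all 9. The call was lost when the fit held only the DZNep and NC libraries (adjusted p = 0.0641). It was kept on leaving out any 1 of the 22 libraries.

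Several cell type markers were also called with DZNep, where 5.27% of all genes were called higher and 6.14% lower. Of the fibroblast markers 2 of 7 tested rose (Col1a1 and Thy1), and the summed value of the list was 1669 and 1938, against 745 and 1476 in NC. Of the pluripotency markers 2 of 10 rose (Zfp42 and Utf1), with sums of 275811 and 284402 against 214081 and 213620. Of the primitive endoderm markers 1 of 4 rose and 1 fell, of the neural markers 1 of 5 rose and 2 fell, and of the trophoblast markers 1 of 4 rose. Of the 12 cell cycle genes 0 were called with any compound. The part of these markers in the change of H2afy was not tested. Over the 22 libraries, with the mean of each replicate number subtracted, the genes most alike to H2afy among 12870 were Plekhh1 (Pearson r = 0.96), Map6d1 (r = 0.96) and Slx1b (r = 0.95). These correlations are a description, since the libraries share the normalization and the 2 DZNep libraries lie apart.

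H2afy2 (ENSMUSG00000020086, chr10:61738665-61784147, minus strand) encodes macroH2A2. Its values were 2174 and 2178 in NC, 1018 and 1403 with Valproate, 1311 and 1308 with OICR, and 1376 and 1414 with Bromosporine. These 6 libraries were the lowest of the 22, and the next lowest was a DZNep library at 1551. The log2 change was -0.86 with Valproate (SE 0.14, adjusted p = 0.00214), where 5.18% of genes passed as lower. It was -0.73 with OICR (SE 0.14, adjusted p = 0.0375), where 0.411% passed, and -0.64 with Bromosporine (SE 0.14, adjusted p = 0.0195), where 3.79% passed. None of these falls reached 2-fold, and the 95% interval of the log2 change with Valproate ran from -1.17 to -0.56. The OICR and Bromosporine changes did not pass after any 1 of the 4 libraries compared was left out. For OICR the adjusted p was 0.27 without NC replicate 1, 0.113 without NC replicate 2, 0.17 without OICR replicate 1 and 0.236 without OICR replicate 2. For Bromosporine it was 0.119 without NC replicate 1, 0.0843 without NC replicate 2, 0.119 without Bromosporine replicate 1 and 0.0726 without Bromosporine replicate 2. The Valproate change passed in each case and was called without Valproate replicate 2 (log2 change -1.10, adjusted p = 0.000974). In direct comparisons Valproate was lower than 7 of the 9 other compounds at the adjusted p, where 7.02% of such pairs of gene and compound passed as lower. The remaining differences were -0.13 against OICR (adjusted p = 0.597) and -0.22 against Bromosporine (adjusted p = 0.323). With DZNep H2afy2 stood at 1551 and 1888 (log2 change -0.35, 95% interval -0.65 to -0.04, adjusted p = 0.0975). With the replicate number as a term in limma, this DZNep change passed, short of 2-fold (adjusted p = 0.0187), though the labels do not pair libraries by number. Among the markers, Utf1 of the pluripotency list rose with all 3 compounds, at log2 changes of 1.32 with Valproate, 1.39 with OICR and 1.55 with Bromosporine. With Valproate 2 of 7 fibroblast markers rose (Thy1 and Lum), 1 of 4 primitive endoderm markers rose (Pdgfra) and 1 of 5 neural markers fell (Sox1), where 2.73% of all genes were called higher and 2.55% lower, with a fibroblast sum of 1613 and 1476. With Bromosporine 1 of 7 fibroblast markers fell, where 2.77% of all genes were called lower. This was Col1a1, at 7 and 6 against 24 and 24 in NC, all low values. Of the trophoblast markers 1 of 4 rose (Eomes), where 0.573% of all genes were called higher. The fibroblast sum with Bromosporine was 740 and 657. With OICR no marker but Utf1 was called, where 0.388% of all genes were called in either direction, and the fibroblast sum was 691 and 985. The part of these markers in the changes of H2afy2 was not tested.

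H1fx and H2afj were both lowest with MS023. H1fx (ENSMUSG00000044927, chr6:87980421-87981637, minus strand) encodes linker histone H1.10, which binds DNA between nucleosomes. With MS023 its values were 533 and 809, against 1866 and 2192 in NC, and the lowest value in any other library was 1209. The log2 change was -1.62 (3.08-fold lower, SE 0.48, 95% interval -2.66 to -0.59), with -1.81 within replicate 1 and -1.44 within replicate 2. It was not called (adjusted p = 0.114), and the spread of H1fx within groups was the largest of the 10 members. With the replicate number as a term in limma, the change was called (adjusted p = 0.000599), where 1.64% of genes were called lower. The labels do not pair libraries by number. Against the mean of the 10 other groups it was called (log2 change -1.51, adjusted p = 0.0186), and in direct comparisons it was called against 2 of the 9 other compounds (Bromosporine and Valproate), where 1.95% of such pairs were called lower. With the replicate number as a term, it was called lower than with all 9, and the share over all genes was not counted in that fit. H1fx was highest with Bromosporine (3149 and 3558), above every other library, but the log2 change of 0.73 against NC did not pass (95% interval -0.31 to 1.76, adjusted p = 0.467). With the replicate number as a term in limma, this change passed, short of 2-fold (adjusted p = 0.0187).

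H1f0 (ENSMUSG00000096210, chr15:79028450-79030504, plus strand) encodes H1.0, the linker histone that accumulates in differentiated and resting cells. It ran from 1508 to 4234 and did not pass the adjusted p with any compound. Its largest change was with UNC0379 (3078 and 3865, against 2168 and 2482 in NC), at a log2 change of 0.57 (adjusted p = 0.863). With MS023, where H1fx was lowest, the values of H1f0 were 1648 and 2155 (log2 change -0.30, 95% interval -0.96 to 0.36, adjusted p = 0.733).

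H2afj (ENSMUSG00000060032, chr6:136808244-136810074, plus strand) encodes H2A.J, an H2A variant with a short C-terminal difference from canonical H2A. Its values were 3966 and 5456 in NC, 2310 and 2527 with MS023, and 6493 and 8442 with DZNep. The MS023 libraries were the lowest and the DZNep libraries the highest of the 22. The change with MS023 was -0.94 on the log2 scale (SE 0.16, adjusted p = 0.0105), short of 2-fold, where 1.34% of genes passed as lower. It did not pass without NC replicate 2 (-0.71, adjusted p = 0.0765) or without MS023 replicate 1 (-0.88, adjusted p = 0.0891), and it was called without NC replicate 1 (-1.17, adjusted p = 0.0109) or without MS023 replicate 2 (-1.01, adjusted p = 0.045). Compared directly, H2afj passed as lower with MS023 than with each of the 9 other compounds (log2 differences from -1.62 to -0.93, largest adjusted p = 0.00497), where 0.214% of genes passed against all 9. It exceeded 2-fold against 8 of them, and the exception was Valproate. The rise with DZNep was 0.67 (SE 0.16, adjusted p = 0.00822), where 10.7% of genes passed as higher. That rise did not pass without NC replicate 1 (0.44, adjusted p = 0.123) or without DZNep replicate 2 (0.48, adjusted p = 0.0737). Of the markers 1 was called with MS023, the neural gene Sox1, which fell, where 0.585% of all genes were called lower.

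The H3.3 genes encode the same protein. In the fit without the replicate number, 0 of their 20 pairs with a compound were called, where 2.15% of all pairs were. H3f3b (ENSMUSG00000016559, chr11:116021912-116027962, minus strand) stood at 19688 and 27687 in NC. It was highest with Valproate (36561 and 67576), Bromosporine (49312 and 44793) and OICR (28536 and 59405). Within the Valproate and the OICR group, replicate 2 lay far above replicate 1. The log2 change with Valproate was 1.09 (SE 0.34, adjusted p = 0.0568) and with Bromosporine 1.01 (SE 0.34, adjusted p = 0.106), and neither was called. With the replicate number as a term in limma, both were called (adjusted p = 0.0048 and 0.011), where 4.47% and 1.39% of genes were called higher. In that fit H3f3b also passed with DZNep (36561 and 41831), short of 2-fold (log2 change 0.74, adjusted p = 0.0201). Without the term it did not pass with DZNep (adjusted p = 0.132). The labels do not pair libraries by number. The Valproate change was called without Valproate replicate 1 (1.53, adjusted p = 0.0354) and on leaving out either OICR library (adjusted p = 0.0291 and 0.029), and it shrank to 0.65 without Valproate replicate 2 (adjusted p = 0.304). After median-ratio scaling it was also called (1.13, adjusted p = 0.0387). The 3 compounds with the highest mean of H3f3b were those with the lowest mean of H2afy2. H3f3a (ENSMUSG00000060743, chr1:180800832-180813943, minus strand) ran from 8502 to 17540, and its changes did not pass with any compound. It was lowest with DZNep (11776 and 8502, against 12283 and 13062 in NC), at a log2 change of -0.34 (adjusted p = 0.264). Its largest change was with IOX1 (17174 and 15816), at 0.38 (SE 0.21, 95% interval -0.07 to 0.83, adjusted p = 0.493).

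In the limma fit without the replicate number, the H2A.Z genes and H2afx did not pass with any compound. With it as a term, H2afx passed with Bromosporine (adjusted p = 0.0103), DZNep (adjusted p = 0.00572) and Valproate (adjusted p = 0.0153). H2afv then passed with DZNep (adjusted p = 0.0354). None of these changes reached 2-fold, and the labels do not pair libraries by number. H2afz (ENSMUSG00000037894, chr3:137864487-137866922, plus strand), whose level is uncertain because of its shared sequence, had the narrowest range of the members, from 14685 to 23780, a 1.62-fold span. Its largest change was with OICR (21917 and 23780, against 14685 and 19201 in NC), at 0.44 on the log2 scale (SE 0.16, adjusted p = 0.293). H2afv (ENSMUSG00000041126, chr11:6427229-6444443, minus strand) had values of 5276 and 9922 with DZNep, against 4732 and 5037 in NC (log2 change 0.57, adjusted p = 0.117). The DZNep libraries disagreed, since the log2 change was 0.16 within replicate 1 and 0.98 within replicate 2. Without DZNep replicate 1 the change was 1.02 and called (adjusted p = 0.00762), and without DZNep replicate 2 it was 0.11. H2afx (ENSMUSG00000049932, chr9:44334694-44336077, plus strand), which encodes H2A.X, was highest with Bromosporine (33698 and 36624, against 20251 and 24710 in NC). Both Bromosporine libraries lay above the other 20, at a log2 change of 0.65 (95% interval -0.06 to 1.36, adjusted p = 0.318). Its lowest means were with DZNep (12341 and 17585) and Valproate (11648 and 19758).

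Ratios of paired genes within a library are given here to compare libraries, without tests. They are not per kilobase and do not rank the genes of a pair. The ratio of H2afy to H2afy2 was 5.37 and 4.15 in NC and 1.83 and 1.66 with DZNep, the lowest ratios of the 22 libraries. With Valproate the ratio was 10.7 and 5.57. The low end came with the fall of H2afy, while the highest ratio was that of Valproate replicate 1 alone. Replicate 1 had the higher ratio of H2afy to H2afy2 in every group. Valproate replicate 2 lay above NC replicate 2, close to NC replicate 1 and below both Bromosporine libraries (7.29 and 5.88). The ratio of H3f3b to H3f3a was 1.60 and 2.12 in NC, 2.75 and 6.58 with Valproate and 3.10 and 4.92 with DZNep. The DZNep ratios came with H3f3a below and H3f3b above both NC libraries. The ratio of H1f0 to H1fx was 1.16 and 1.13 in NC and 3.09 and 2.66 with MS023, the highest ratios of all. The ratio of H2afz to H2afv stayed between 1.89 and 5.74, with both Valproate libraries (3.22 and 2.90) beside NC (3.10 and 3.81).

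**Figure D4:**
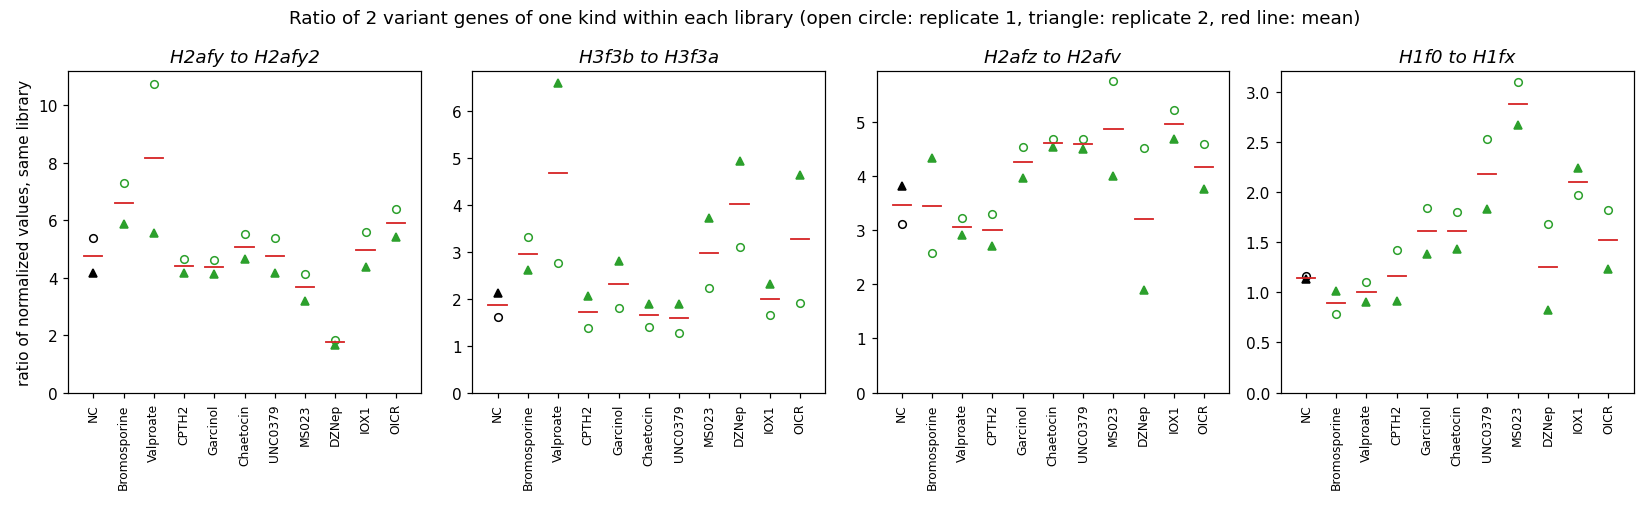
Ratio of the normalized values of paired variant genes within each library (vertical axes, starting at 0) by group (horizontal axes), with open circles for replicate 1, triangles for replicate 2 and red lines for the mean. The ratio of H2afy to H2afy2 is lowest with DZNep (1.83 and 1.66) and the ratio of H1f0 to H1fx is highest with MS023 (3.09 and 2.66).

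Genes that deposit, remove or act on the variants were read from the same fit, to see whether they moved with them. Of the 44 genes listed, all 44 were tested and 1 was called with any compound. This is 1 of 440 pairs of gene and compound (0.227%), where 2.15% of all pairs were called. Mdc1, which binds phosphorylated H2A.X at DNA breaks, had values of 2920 and 2297 with DZNep, against 5466 and 5144 in NC (log2 change -1.03, SE 0.14, adjusted p = 0.000265). The other 9 H2A.X genes were not called with DZNep, and the median log2 change of the 10 was -0.26, against -0.04 for all genes. The Mdc1 call lies just past 2-fold and was lost in the fit of the DZNep and NC libraries alone, after median-ratio scaling and with all other groups as the reference. Of the 9 H3.3 deposition genes, which include Hira, Atrx and Daxx, 0 were called with any compound, and their median change ran from -0.14 (Valproate) to 0.14 (DZNep). Of the 13 H2A.Z genes, which include Srcap, Ep400 and the eviction factor Anp32e, 0 were called, with medians from -0.10 (Valproate) to 0.12 (DZNep). Of the 4 macroH2A genes (Aplf, Hells, Chd1l and Parp1) 0 were called, and with DZNep their median was -0.17. Of the 8 linker and general histone chaperones 0 were called, with medians from -0.10 (DZNep) to 0.37 (IOX1).

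The clustered histone genes were set beside the members. Of these 62, 43 were tested. With MS023 4 of 43 fell, where 0.585% of all genes were called lower, and 0 rose, with a median log2 change of -1.04 against -0.01 for all genes, while the median of the 10 members was -0.20 and 8 of the 10 were below 0. With Bromosporine 2 of 43 rose, where 0.573% of all genes were called higher, and 0 fell, with a median of 0.63, and the median of the members was 0.29 with 8 of 10 above 0. With DZNep 3 rose and 4 fell, where 11.4% of all genes were called in either direction, and with Valproate 1 fell, where 2.55% were called lower. Over the 10 compounds the medians of the members and of the clustered genes had the same sign in 6 and opposite signs in 4 (Garcinol, IOX1, OICR and UNC0379). The clustered genes were low in this oligo-dT-selected RNA, with summed values of 1031 to 4563 over 62 genes per library, where the 10 members summed to 93487 to 150831. Cenpa, the centromeric H3 variant, was called with 0 of the 10 compounds and ran from 4290 to 6477.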

How the data were processed

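Poly(A)-selected RNA of 22 libraries of E14 ESCs was analysed, with libraries grouped and numbered by the sample titles. The deposited values are scores, read here as normalized abundances rounded to whole numbers. Per the labels the authors used bcl2fastq, Bowtie2 2.2.5, RSEM and mm10. The normalization step is not given in the sources used here. The median (409) and the largest value (221616) were the same in every library, and the quartiles nearly so (53 to 54 and 1608 to 1608.5). The libraries thus share nearly the same distribution of values, and the value of a gene follows its rank within the library. H3f3b, for example, stood at exactly 36561 in both Valproate replicate 1 and DZNep replicate 1. Fold changes, ratios and sums are therefore steps on this shared scale. Such scaling hides depth and any change shared by most genes. All 22 columns matched a title, and a companion table of the authors' group means was left out.

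The log2 of each value plus 1 was taken, and limma 3.58.1 (R 4.3.3) was run on the 17275 of 18487 genes that reached 10 in 2 or more libraries. A single model of 11 group means covered every library (11 residual degrees of freedom), with moderated variances and a trend on the mean. Tests are two-sided, with the Benjamini-Hochberg adjustment over all genes within each contrast. Calls needed an adjusted p under 0.05 and a change of more than 2-fold. "Rose", "fell" and "passed" are used only of changes past the adjusted p, and of list genes only when called. The fit was tested on simulated data with independent noise in each library. These held no shift between replicate numbers, so that test does not cover the shift seen in the data. Members and lists were chosen with earlier results of these data known. The rule for named genes took all members, each called compound and the compound with the largest change, called deposition genes, and the 3 genes most alike to a called member (mean of at least 100).

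Alternatives were a pseudocount of 10, no filter, a fit of the compound and NC alone, the mean of the other groups as reference, median-ratio scaling, the replicate number as a term, and each library left out. Direct comparisons between compounds were chosen after seeing the data. Gene positions and transcripts came from GENCODE M21 (mm10). A near-identical copy or an overlapping gene may share reads with a member, and strand use in counting is not given in the sources used here. The opposite-strand genes Gm49544, Gm5577, Gm44335, Gm47071, Aifm2, Gm44364 and Gm17275 overlap exons of H1f0, H1fx, H2afx, H2afy, H2afy2, H2afj and H3f3a. H3f3aos also overlaps H3f3a on the opposite strand, and Gm47286 overlaps H1fx on the same strand. Python 3.11.15 and matplotlib 3.10.9 were used for sequences and plots.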

Additional observations from a re-analysis of the deposited data

How the results depend on the processing

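The 100 pairs of member and compound gave 1 call, H2afy with DZNep. The count was 0 in fits of only the compound and NC libraries, 3 against the mean of the other groups, 2 after median-ratio scaling, and 1 to 2 on leaving out single libraries. Members varying over the groups numbered 3, and 3 to 4 on leaving out single libraries. The deposition genes gave 1 call, and 0 in fits of only the compound and NC libraries, after median-ratio scaling and with the other groups as reference. Other pseudocounts or filters changed no member call. Replicate numbers did not pair the libraries by the labels. The 55 correlations between groups of same-numbered deviations ran from 0.0535 to 0.298 (median 0.196), 51 of 55 over 0.1, so libraries of one number deviated together, as a hint from the data only. With the replicate block, 4 pairs were called (H2afy with DZNep, H1fx with MS023 at an adjusted p of 0.000599, and H3f3b with Valproate at 0.0048 and with Bromosporine at 0.011), where 3.65% of all pairs were, and 9 of 10 members varied over the groups, where 65.9% of genes did. The block left the deposition count at 1. Of the changes under 2-fold in the members with wide spread (H1fx, H2afx, H3f3b), 0 passed the adjusted p without the block and 5 with it. Depth is unknown.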
